A study of Mus musculus with 4 samples.

Results

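Chemokines and their receptors were examined in RNA of sorted brain cells from mice with or without tamoxifen, which was given to delete Mgp in endothelial cells, by taking every gene whose symbol begins with Ccl, Cxcl, Ccr, Cxcr, Ackr or Cx3cl followed by a number. Cxcl12 and Ackr1, which the rule also finds, were left out. The 43 genes described, of the 24873 in the table, comprised 28 ligands and 15 receptors. All libraries came from mice labelled Cdh5cre;Mgpflox/flox, in which a Cre recombinase fused to the estrogen receptor is driven by the VE-cadherin promoter and both copies of Mgp carry loxP sites. Tamoxifen activates this recombinase. The tamoxifen group was given 75 mg/kg each day over 5 days, beginning at 10 weeks of age. Control mice had the same genotype and were not given tamoxifen. RNA was taken on day 9 from cerebral cells sorted as CD31+CD45-, with cells of 3 mice pooled for each of the 2 libraries per group. The labels name the cells Brain tdTomato+, whereas the study's methods describe the sort by CD31 and CD45. The table marks the control columns as in the sample titles, and its other columns carry a letter that the titles lack and were taken as the tamoxifen group.

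Chemokines are small secreted or membrane-anchored proteins that guide cells along gradients. They are grouped as CC, CXC or CX3C by the spacing of their first cysteines, and they act on G protein-coupled receptors that signal mainly through inhibitory G proteins. Atypical receptors (Ackr) bind chemokines without classical G protein signaling and take them up, which shapes the gradients. In the brain, endothelium displays chemokines to passing leukocytes, and most of the classical receptors are best known on leukocytes.

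The promoters of 6 members are shown because they span the responses described here. Ccl9, Ccl6 and Ccr1 were higher after tamoxifen, Ackr2 and Ackr3 were lower, and Cxcl1 did not pass the test. Each sequence holds the 250 bases before the start of the gene in RefSeq (GRCm38.p6 table), 5′ to 3′ on the gene's strand, and each matched the GRCm39 genome at a single place. These places are chr11:83469463-83469712 (Ccl9, minus strand), chr11:83483914-83484163 (Ccl6, minus strand), chr5:91038854-91039103 (Cxcl1, plus strand), chr9:123768730-123768979 (Ccr1, minus strand), chr9:121727171-121727420 (Ackr2, plus strand) and chr1:90131452-90131701 (Ackr3, plus strand). The Ccl9 window lies inside the gene as GENCODE M39 draws it. Capitals mark matches, on either strand, to the NF-kB consensus, the AP-1 site TGANTCA, the C/EBP site TTGCNNAA, the PU.1 core GAGGAA or the interferon response element (2 GAAA boxes separated by 2 bases).
Ccl9: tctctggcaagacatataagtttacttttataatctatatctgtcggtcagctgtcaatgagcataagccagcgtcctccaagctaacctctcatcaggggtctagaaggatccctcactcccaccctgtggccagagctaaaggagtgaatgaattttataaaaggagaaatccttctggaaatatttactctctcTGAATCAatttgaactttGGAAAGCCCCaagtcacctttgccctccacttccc
Ccl6: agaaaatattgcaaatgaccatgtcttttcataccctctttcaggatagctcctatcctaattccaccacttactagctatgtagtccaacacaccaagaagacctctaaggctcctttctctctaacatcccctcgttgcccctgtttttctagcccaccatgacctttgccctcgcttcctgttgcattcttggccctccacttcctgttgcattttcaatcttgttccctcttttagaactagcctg
Cxcl1: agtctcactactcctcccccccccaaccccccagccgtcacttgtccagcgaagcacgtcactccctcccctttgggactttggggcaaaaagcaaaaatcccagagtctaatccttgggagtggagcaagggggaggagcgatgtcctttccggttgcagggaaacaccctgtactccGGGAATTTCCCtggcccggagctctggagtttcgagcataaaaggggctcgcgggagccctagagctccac
Ccr1: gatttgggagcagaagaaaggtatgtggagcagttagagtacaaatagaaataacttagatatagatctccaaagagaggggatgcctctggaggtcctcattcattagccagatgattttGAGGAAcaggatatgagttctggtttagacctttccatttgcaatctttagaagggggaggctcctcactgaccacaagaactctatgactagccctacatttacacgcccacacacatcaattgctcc
Ackr2: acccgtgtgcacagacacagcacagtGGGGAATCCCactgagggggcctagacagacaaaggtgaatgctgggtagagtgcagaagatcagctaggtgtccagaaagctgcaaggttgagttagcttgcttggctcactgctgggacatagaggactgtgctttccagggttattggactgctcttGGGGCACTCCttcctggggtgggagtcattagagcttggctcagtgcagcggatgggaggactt
Ackr3: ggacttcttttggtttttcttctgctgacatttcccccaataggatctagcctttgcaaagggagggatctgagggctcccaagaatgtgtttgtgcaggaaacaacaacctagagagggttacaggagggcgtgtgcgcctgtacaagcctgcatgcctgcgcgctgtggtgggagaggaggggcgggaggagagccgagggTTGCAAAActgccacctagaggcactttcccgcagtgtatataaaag
An NF-kB match was present in the windows of Ccl9, Cxcl1 and Ackr2, which differed in their response. The Ccl9 window also held an AP-1 match, Ccr1 held a PU.1 match, Ackr3 held a C/EBP match and Ccl6 held none of the 5 motifs. The RefSeq table held 34 windows of 31 members, of which 7 had an NF-kB match (1 each of Ccl20, Cxcl1, Cxcl2, Cxcl10, Ackr2, Ccr3 and Ccl9), and 3.90% of all 32851 windows of this length had one. AP-1 was matched in 5 of the 34 windows and 6.75% of all windows, and C/EBP in 4 and 9.56%. PU.1 was matched in 13 and 23.3%, and the interferon element in 3 and 2.98%. The C/EBP and PU.1 windows belong to 3 and 12 members, since overlapping windows of Ccl27a hold the same matches. Some windows lie mostly in exons of their own gene, among them those of Ackr4 (250 bases), Cxcl14 (239), Ccr2 (238) and Ccl19 (212). The Cxcl14 and Ccl19 windows are among those with an interferon match. In the Cxcl1 window the NF-kB matches of both strands overlap. Members without an entry were Ccl2, Ccl4, Ccl5, Ccl7, Ccl11, Ccr7, Ccr10, Cxcl5, Cxcl11, Cxcl16, Cxcl17 and Cxcr5.

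Read counts per gene had been divided by one factor per library, and the resulting values are termed normalized counts. A gene was called higher or lower when its adjusted p in the fit across all tested genes was under 0.05 and its log2 fold change was over 1 in size. Reads assigned to genes ranged from 35387438 to 49799321 per library. Finding 0 reads of a gene allows up to 3 reads at this depth, a limit for counting error only that corresponds to 2.16 to 4.11 normalized counts. Mgp had 1094 and 1352 normalized counts without tamoxifen, against 945 and 909 with tamoxifen (log2 fold change -0.39, standard error [SE] 0.18, limma with Benjamini-Hochberg [BH] adjustment, adjusted p = 0.0986). Mgp was thus not called lower in the libraries taken as the tamoxifen group. All 10 endothelial marker genes, among them Pecam1 and Cdh5, were called lower, and their summed level was 1032467 to 1041851 without and 92069 to 180606 with tamoxifen. All 10 neutrophil markers were called higher, with sums of 723 to 1233 without and 88363 to 118679 with tamoxifen, and Ly6g had 0 reads in both control libraries. The 5 pan-leukocyte markers summed to 4832 to 5020 and to 12868 to 17509, with 4 called higher. The 10 lymphocyte markers summed to 71.2 to 110.1 and to 2045 to 2831, with 7 called higher and Ncr1 without a read in the control libraries. The 10 microglia and macrophage markers summed to 1589 to 2978 and to 4405 to 4949.7, with 7 called higher. The 5 platelet markers in the table summed to 299 to 596 and to 2262 to 2933, and all 5 were called higher. The 6 pluripotency markers summed to 58.9 to 90.1 and to 34059 to 44096, the 5 fibroblast markers to 1712 to 2439 and to 50945 to 61493, and the 5 astrocyte markers to 15201 to 24213 and to 114811 to 250637, each with all genes called higher. Of 7 pericyte and smooth muscle markers 1 was called higher, with sums of 24237 to 42046 and of 28374 to 58807. These counts stand beside 28.6% of all tested genes called higher and 16.0% called lower. A mean of 10 normalized counts over the libraries was needed for a test. Mpo, Ly6g, Elane, Cd3e, Cd4, Ms4a1, Nkg7, Nanog, Sall4 and Zfp42 reached it only through their tamoxifen values. These 10 markers could be called in that direction only. The part of these cell types in the results that follow was not tested. In bulk RNA fewer cells of a type cannot be told apart from less RNA per cell.

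To examine which chemokine genes changed after tamoxifen, the 20485 genes whose mean over the libraries reached 10 normalized counts were fitted together with limma on log2(normalized count + 1), which shrinks the fold change of a gene with few reads. Of the 43 members, 29 passed the filter and were tested. Among them 12 were called higher, against a background of 28.6% of all tested genes, and 4 were called lower, against a background of 16.0%. In either direction 44.7% of all tested genes were called. Of the 12 higher members, 8 passed the filter only through their tamoxifen values, so these could be called in one direction only and no share is read from the count. Both tamoxifen libraries lay above both control libraries for 22 of 43 members, and below them for 11 (background 43.1% and 39.2% of tested genes, 82.3% in either direction). These 43 include 14 members that were not tested, whereas the background covers tested genes only, so the shares are not compared. Exact permutation of 2 libraries against 2 cannot give a two-sided p below 0.333, and limma's adjusted p-values draw on a spread shared across genes. Nothing in the labels says that same-numbered libraries are paired.

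Inflammatory CC ligands were the ligand group with the largest rises. Of 13 such genes in the table, 5 passed the filter and all 5, namely Ccl2, Ccl5, Ccl6, Ccl7 and Ccl9, were called higher. Of them, 3 (Ccl5, Ccl7 and Ccl9) passed only through their tamoxifen values, and 28.6% of all tested genes were called higher. Ccl2 (chr11:81926397-81928279, plus strand, GRCm39), a monocyte attractant that acts on Ccr2, had 21.9 and 17.5 normalized counts without tamoxifen, against 976 and 727 with tamoxifen. The groups lay far apart, and both libraries within each group were close. Its log2 fold change was 5.36 (SE 0.37, limma, BH-adjusted p = 3.55e-05). Ccl9, which acts on Ccr1 and is known from mouse macrophages and myeloid cells, had 8.22 and 6.26 without tamoxifen, against 1146 and 765 with tamoxifen. Tamoxifen library 1 was the higher of the pair, as it was for Ccl2. The log2 fold change of Ccl9 was 6.84 (SE 0.44, limma, BH-adjusted p = 2.46e-05).

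Ccl6, the neighbor of Ccl9 on chromosome 11 and likewise a myeloid CC chemokine, had 12.3 and 30.0 normalized counts without tamoxifen, against 763 and 548 with tamoxifen. Ccl7, a further Ccr2 ligand, had no read in either control library and 183 and 140.2 normalized counts in the tamoxifen libraries. Measured against the limit of 3 reads per control library, Ccl7 was at least 41.1-fold higher. Ccl5, a ligand of Ccr1 and Ccr3 made by T cells and other leukocytes, had 0 and 1 reads in the control libraries and 92 and 110 reads in the tamoxifen libraries. The ratio of Ccl5, corrected for the library factors, was 133 (95% interval from counting alone 23.7 to 5299). Ccl6 was called with a log2 fold change of 4.99 (SE 0.50, limma, BH-adjusted p = 0.000132), and without tamoxifen library 1 or 2 its adjusted p was 0.0573 and 0.0552. The other 8 inflammatory CC ligands (Ccl3, Ccl4, Ccl8, Ccl11, Ccl12, Ccl17, Ccl20 and Ccl22) stayed under the filter. Ccl8 and Ccl12 had no control reads, with 14 and 3 reads of Ccl8 and 4 and 7 reads of Ccl12 in the tamoxifen libraries. Ccl3, a macrophage inflammatory protein like Ccl4, had 0 and 6 control reads and 3 and 17 tamoxifen reads, and its groups overlapped.

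None of the 5 homeostatic CC ligands, which guide lymphocytes through lymphoid tissue and epithelia, was called, although all 5 were called lower under quantile normalization. Ccl25, the thymic and gut ligand of Ccr9, had 355 and 191 normalized counts without tamoxifen, against 225 and 279 with tamoxifen, with overlapping groups (log2 fold change -0.06, SE 0.36, limma, BH-adjusted p = 0.903). Ccl27a, a skin ligand of Ccr10, had 219 and 240.3 without tamoxifen, against 179.9 and 159 with tamoxifen, so the groups did not overlap but the difference was small (log2 fold change -0.44, SE 0.30, limma, BH-adjusted p = 0.244). Ccl28, a mucosal ligand of Ccr10 and Ccr3, had 58.9 and 56.3 without tamoxifen, against 22.8 and 33.8 with tamoxifen. Ccl19 had 23.3 and 38.8 against 5.42 and 17.3, and Ccl21a, which with Ccl19 forms the ligands of Ccr7, had 23.3 and 7.51 against 5.42 and 5.03. Ccl21a passed the filter only through its control values, so it could be called lower only. Both tamoxifen libraries were lower for 4 of the 5 genes (background 39.2% of all tested genes), and none of these differences passed the test. Of these 4, Ccl27a had a log2 fold change of 0.029 once totals were made equal. Values of Ccl19, Ccl21a and Ccl27a are uncertain, because 76.9%, 50.8% and 48.2% of the 50-base stretches of their transcripts also occur in transcripts of other genes in GENCODE M39, such as the Ccl19 pseudogenes, Ccl21b and Ccl27al. Ccl27a also overlaps Il11ra1 on the opposite strand, and Ccl25 overlaps Elavl1 likewise. The strand setting used in counting is not given in the sources used here.

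**Figure D1:**
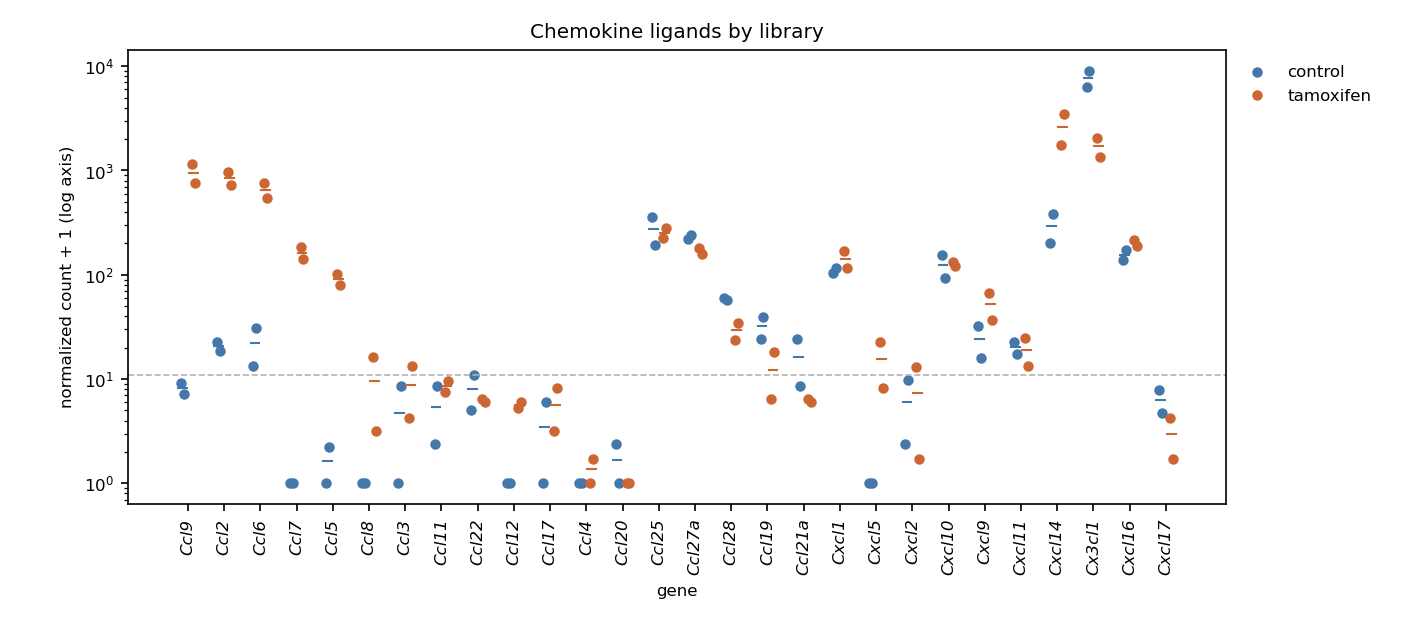
Normalized count + 1 (log axis) of each of the 28 chemokine ligands in the 2 control and 2 tamoxifen libraries, one point per library with a bar at the group mean, and a dashed line at 10 normalized counts, the mean a gene needed to be tested. The tamoxifen points of Ccl2, Ccl6, Ccl7 and Ccl9 lie above 100 while their control points lie near or below the dashed line, and Cx3cl1 shows the reverse order.

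The CXC ligands did not move together. Of the 3 ligands described here that carry the ELR residues and attract neutrophils through Cxcr2, Cxcl1 alone passed the filter. Cxcl1 had 102.7 and 113.9 normalized counts without tamoxifen, against 169 and 114.3 with tamoxifen, so tamoxifen library 2 lay next to control library 2 (log2 fold change 0.36, SE 0.39, 95% interval -0.54 to 1.26, limma, BH-adjusted p = 0.447). Cxcl5 had no read in the control libraries and 20 and 10 reads in the tamoxifen libraries, at least 3.67-fold more in normalized counts (1.83-fold without tamoxifen library 1). Cxcl2 had 1 and 7 control reads and 11 and 1 tamoxifen reads, with overlapping groups. Of the 50-base stretches of Cxcl2, 5.84% also occur in transcripts of other genes. The 3 interferon-induced ligands of Cxcr3 were all tested, and none was called, although Cxcl10 was called lower under quantile normalization. Cxcl10 had 153 and 92.6 without tamoxifen, against 131 and 119 with tamoxifen, and the latter lay between the control values (log2 fold change 0.07, SE 0.40, 95% interval -0.87 to 1.01, limma, BH-adjusted p = 0.894). Cxcl9 had 31.5 and 15.0 against 66.1 and 35.9, and Cxcl11 had 21.9 and 16.3 against 23.8 and 12.2. Cxcl10 overlaps Art3 on the opposite strand.

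Cxcl14 (chr13:56436352-56444603, minus strand), an epithelial and glial chemokine without an agreed classical receptor, was the one CXC ligand called higher among the tested members. The CXC platelet chemokines Ppbp and Pf4, which the rule does not find, were also called higher and are described below. Cxcl14 had 203 and 383 normalized counts without tamoxifen, against 1750.3 and 3442 with tamoxifen. Tamoxifen library 2 was higher than tamoxifen library 1, and both exceeded the control libraries. The log2 fold change was 3.13 (SE 0.38, limma, BH-adjusted p = 0.000322). The astrocyte sum was likewise higher in tamoxifen library 2 than in tamoxifen library 1. So was the pericyte and smooth muscle sum, with 28374 in tamoxifen library 1 and 58807 in tamoxifen library 2. The cell source of Cxcl14 was not tested. Without tamoxifen library 2 the adjusted p of Cxcl14 was 0.0738 (limma, BH), at a log2 fold change of 2.65. Cxcl16, a membrane-anchored ligand of Cxcr6, had 138 and 170.2 without tamoxifen, against 214 and 189 with tamoxifen (log2 fold change 0.39, SE 0.32, 95% interval -0.37 to 1.14, limma, BH-adjusted p = 0.331). Cxcl17 stayed under the filter, with 1 to 5 reads per library.

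Cx3cl1 (fractalkine, chr8:95498637-95509055, plus strand), which endothelial cells and neurons carry on their membrane and which binds Cx3cr1, was the one ligand called lower. Its normalized counts were 6367 and 8989 without tamoxifen, against 2047 and 1358 with tamoxifen. The groups did not overlap, and both control libraries lay well above both tamoxifen libraries. The log2 fold change was -2.18 (SE 0.24, limma, BH-adjusted p = 0.000216), with the 10 endothelial markers all lower in the same libraries. Without tamoxifen library 2 its adjusted p was 0.0544 (limma, BH), at a log2 fold change of -1.89. Cx3cr1, the microglial receptor of this ligand, is spelled outside the rule and had 307 and 618 without tamoxifen, against 449.8 and 485 with tamoxifen, with overlapping groups (log2 fold change 0.10, SE 0.34, limma, BH-adjusted p = 0.812).

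Of the 7 classical CC receptors described, 5 were tested. Among these, 3 were called higher (Ccr1, Ccr2 and Ccr7) and Ccr10 was called lower (background 28.6% and 16.0% of all tested genes). The 3 higher ones passed the filter only through their tamoxifen values. Ccr1 (chr9:123762161-123768734, minus strand), a receptor of monocytes and neutrophils for Ccl5, Ccl6 and Ccl9, had 1 and 0 reads in the control libraries and 397 and 453 reads in the tamoxifen libraries. These reads correspond to 430.3 and 326 normalized counts after tamoxifen. The ratio of Ccr1 was 562 (95% interval from counting alone 101 to 22213). Ccr2, the monocyte receptor of Ccl2 and Ccl7, had 2.74 and 12.5 normalized counts without tamoxifen, against 535 and 370.2 with tamoxifen. Control library 2 was the higher control, and both stayed far below the tamoxifen libraries (log2 fold change 5.97, SE 0.67, limma, BH-adjusted p = 0.000223). Ccr7, which leads dendritic cells and T cells to lymph nodes, had 10.96 and 6.26 without tamoxifen, against 55.3 and 30.2 with tamoxifen (log2 fold change 2.17, SE 0.63, limma, BH-adjusted p = 0.0187). The Ccr7 call was lost without tamoxifen library 1 or 2 (limma, BH-adjusted p = 0.111 and 0.0759) and with quantile normalization (log2 fold change 1.19, adjusted p = 0.136). The call of Ccr2 was likewise lost without tamoxifen library 1 or 2 (limma, BH-adjusted p = 0.0648 and 0.0639).

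Ccr10, a receptor for Ccl27a and Ccl28, had 129 and 81.4 normalized counts without tamoxifen, against 26.0 and 33.8 with tamoxifen. Its control libraries differed more than its tamoxifen libraries, and the groups did not overlap (log2 fold change -1.75, SE 0.50, limma, BH-adjusted p = 0.0177). This call was lost with equal totals (limma, BH-adjusted p = 0.0619) and without control library 1, tamoxifen library 1 or tamoxifen library 2 (0.0756, 0.164 and 0.122). Ccr9, the Ccl25 receptor of thymic and gut T cells, had 54.8 and 38.8 against 19.5 and 25.2 and was not called (log2 fold change -1.02, SE 0.54, limma, BH-adjusted p = 0.137). Ccr3, an eosinophil receptor, had no control reads and 10 and 25 tamoxifen reads, at least 3.66-fold more in normalized counts. Ccr4 had 0 and 3 control reads and 6 and 7 tamoxifen reads, a ratio of 2.86 with an interval from counting alone of 0.79 to 15.7. Neither Ccr3 nor Ccr4 passed the filter.

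**Figure D2:**
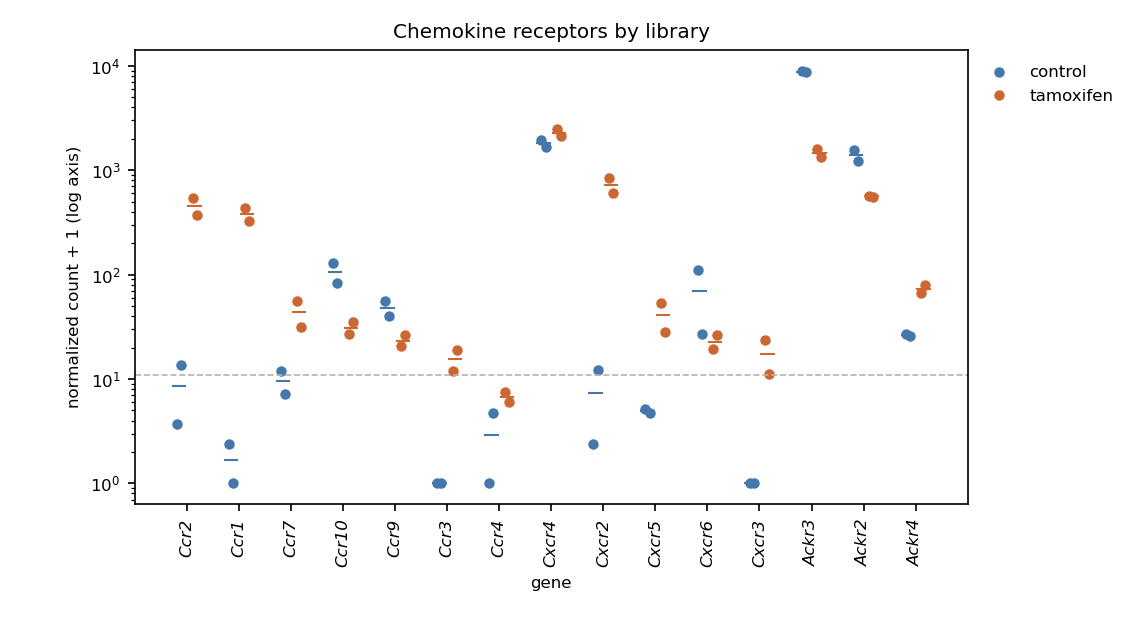
Normalized count + 1 (log axis) of each of the 15 chemokine receptors in the 2 control and 2 tamoxifen libraries, one point per library with a bar at the group mean, and a dashed line at 10 normalized counts. Ccr1, Ccr2 and Cxcr2 lie at or near the line or below it in the control libraries and far above it in the tamoxifen libraries, whereas Ackr3 falls from 8784 to 1468 on average.

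Of the 5 CXC receptors, 4 were tested, and Cxcr2 and Cxcr5 were called higher (background 28.6% of all tested genes). Both passed the filter only through their tamoxifen values. Cxcr2 (chr1:74193150-74200405, plus strand), the main chemokine receptor of neutrophils, had 1.37 and 11.3 normalized counts without tamoxifen, against 841 and 607 with tamoxifen. The control libraries differed, with 1 and 9 reads, and both were far below 776 and 844 reads after tamoxifen (log2 fold change 7.05, SE 0.76, limma, BH-adjusted p = 0.000186). Without tamoxifen library 1 or 2 the adjusted p of Cxcr2 was 0.0679 and 0.0683 (limma, BH), at log2 fold changes of 6.82 and 7.29. Cxcr5, a receptor of B cells for Cxcl13, had 4.11 and 3.75 without tamoxifen, against 52.0 and 27.3 with tamoxifen (log2 fold change 2.97, SE 0.62, limma, BH-adjusted p = 0.00446). Cxcr5 overlaps Bcl9l on the opposite strand. Cxcr4, the receptor of Cxcl12 on many cell types, had 1938 and 1676 without tamoxifen, against 2467 and 2129 with tamoxifen. Its groups lay close but apart, and the gene was not called (log2 fold change 0.35, SE 0.17, 95% interval -0.04 to 0.73, limma, BH-adjusted p = 0.107). Cxcr6, the lymphocyte receptor of Cxcl16, had 109.6 and 26.3 without tamoxifen, against 18.4 and 25.2 with tamoxifen. Control library 1 alone stood high. The log2 fold change of Cxcr6 was -1.28, and -0.28 without control library 1. Cxcr3, a T cell receptor, had no control reads and 21 and 14 tamoxifen reads, at least 4.17-fold more in normalized counts (2.56-fold without tamoxifen library 1), and stayed under the filter.

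All 3 atypical receptors in the set were called, 2 lower and 1 higher, against 44.7% of all tested genes called in either direction. However, Ackr2 lost its call with equal totals and without either tamoxifen library. Ackr4 lost its call with quantile normalization and without any one of the 4 libraries. Ackr3 (chr1:90131689-90144473, plus strand), which scavenges Cxcl12, had 8925 and 8644 normalized counts without tamoxifen, against 1604 and 1331 with tamoxifen. Within each group the libraries were close, and the groups were widely separated (log2 fold change -2.59, SE 0.16, limma, BH-adjusted p = 2.06e-05). Ackr2 (chr9:121727421-121741249, plus strand), which takes up inflammatory CC chemokines such as Ccl2 and Ccl5, had 1567 and 1224 without tamoxifen, against 568 and 554 with tamoxifen (log2 fold change -1.30, SE 0.19, limma, BH-adjusted p = 0.000852, and 0.058 and 0.0652 without tamoxifen library 1 and 2). Ackr4, which takes up Ccl19, Ccl21 and Ccl25, had 26.0 and 25.0 without tamoxifen, against 66.1 and 79.1 with tamoxifen (log2 fold change 1.47, SE 0.49, limma, BH-adjusted p = 0.0339, and 0.0511 to 0.145 with one library left out). Ackr4 overlaps Acad11 on the opposite strand.

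**Figure D3:**
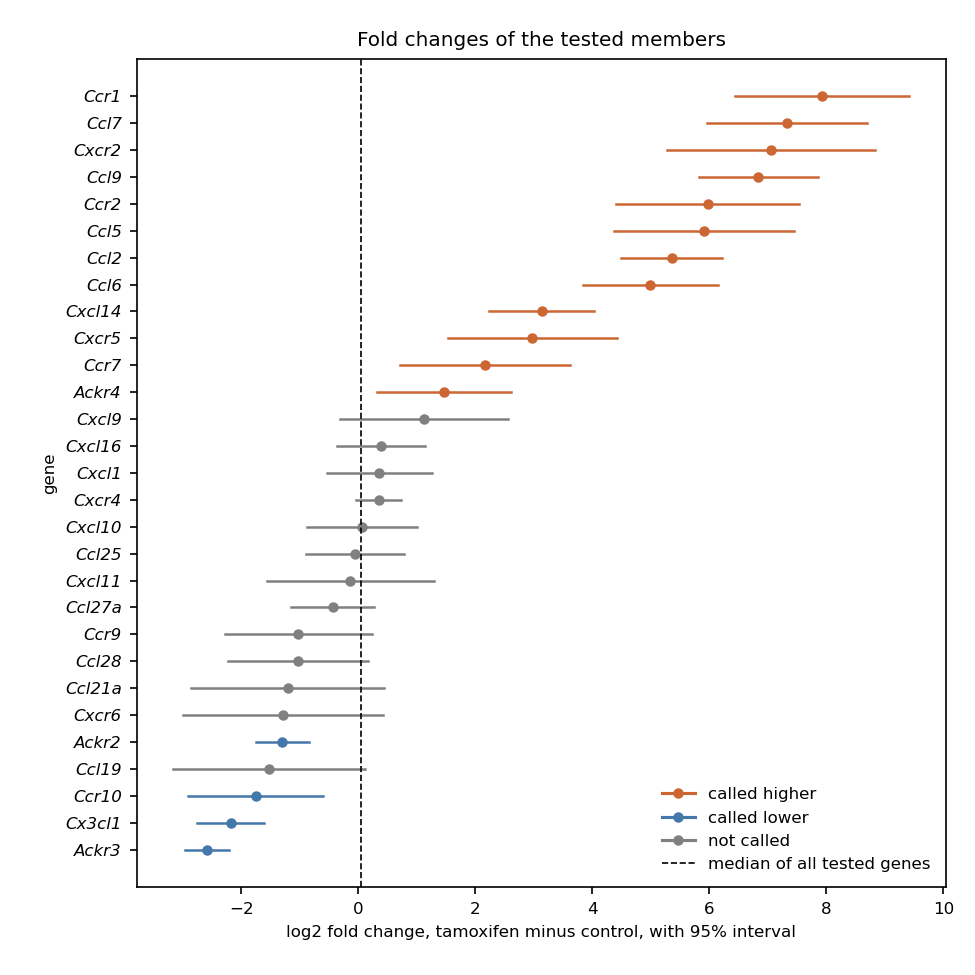
Log2 fold change (tamoxifen minus control, x axis) of the 29 tested members, with 95% intervals from limma, colored by call, beside the median of all tested genes at 0.05 (dashed line). Ccr1, Ccl7 and Cxcr2 lie farthest to the right and Ackr3 and Cx3cl1 farthest to the left, and the value of Ccl7, which had no control read, depends on the pseudocount.

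Per kilobase of the canonical transcript, the highest control levels were those of Ackr3 (2854 normalized counts per kilobase), Cx3cl1 (2316) and Cxcr4 (992), followed by Ackr2 (338) and Ccl25 (303). In the tamoxifen libraries the highest group means per kilobase were those of Cxcr4 (1261), Ccl2 (1048), Cxcl14 (889), Cx3cl1 (514), Ackr3 (477) and Ccl6 (455). On this scale Ccl2 had 24.3 per kilobase in the control libraries. The order depends on the length used. Per kilobase of all annotated exons, control levels were 1934 for Cx3cl1, 1084 for Ackr3, 992 for Cxcr4, 303 for Ackr2 and 21.8 for Ccl25, and with tamoxifen Cxcr4 (1261) was followed by Cxcl14 (758), Ccl2 (748), Cx3cl1 (429) and Ccl6 (361), with Ackr3 at 181. Summed over members, ligands had a mean of 9083 normalized counts without and 8078 with tamoxifen, and receptors had 12261 and 6147. These sums weigh abundant genes most. Ackr3 alone had means of 8784 and 1468, and Cx3cl1 of 7678 and 1703. Both tamoxifen libraries lay above both control libraries for 10 of the 15 receptors and below them for 5 (background 43.1% and 39.2% of tested genes). The 15 include 3 receptors that were not tested, so these shares are not compared either.

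Receptors were then set beside their ligands. Ccl2 and Ccl7 rose together with their receptor Ccr2, and Ccl5, Ccl6 and Ccl9 rose together with Ccr1. Cxcr2 rose, whereas among its ligands in the set Cxcl1 was not called and Cxcl2 and Cxcl5 stayed at or below 20 reads per library. Ppbp, a further Cxcr2 ligand that the rule does not find, was called higher. It had 17.8 and 51.3 normalized counts without tamoxifen, against 1077 and 876 with tamoxifen. Ccr7 rose, whereas its ligands Ccl19 and Ccl21a were not called and had lower values in both tamoxifen libraries. Ccr10 was called lower, with the losses given above, and its ligands Ccl27a and Ccl28 were not called. Neither Cxcl16 nor its receptor Cxcr6 was called, and neither Ccl25 nor Ccr9. The ligands Ccl5, Ccl7 and Ccl9 and the receptors Ccr1, Ccr2, Ccr7, Cxcr2 and Cxcr5 passed the filter only through their tamoxifen values. These genes could be called in that direction only. The calls of Ccl6, Ccr2, Ccr7 and Cxcr2 had the losses given above. The neutrophil, lymphocyte and pan-leukocyte marker sums were higher in the same libraries. So were the microglia and macrophage, platelet, fibroblast, astrocyte and pluripotency sums. The cell source of these rises was not tested. Ptprc, which encodes the CD45 protein used to exclude leukocytes in the sort, had 50.7 and 83.9 normalized counts without tamoxifen, against 1423 and 1119 with tamoxifen.

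Many members lie in clusters on the genome, here defined as members less than 1000000 bases apart in GRCm39. The cluster on chr11:81926397-82007625 holds Ccl2, Ccl7, Ccl11, Ccl12 and Ccl8, of which both tested genes (Ccl2 and Ccl7) rose. A second cluster on the same chromosome, chr11:83416602-83555509, holds Ccl5, Ccl9, Ccl6, Ccl3 and Ccl4, and its 3 tested genes (Ccl5, Ccl9 and Ccl6) rose, while Ccl4 next to them had 1 read in all. The receptor cluster on chr9:123507181-123913594 holds Ccr9, Cxcr6, Ccr1, Ccr3 and Ccr2. Of its 4 tested genes, Ccr1 and Ccr2 rose and Ccr9 and Cxcr6 were not called. No member was called in the clusters of Cxcl5, Cxcl1 and Cxcl2 (chr5:90907186-91053797), of Cxcl9, Cxcl10 and Cxcl11 (chr5:92469206-92513344) and of Ccl27a, Ccl19 and Ccl21a (chr4:41769467-42773995). On chr8:95471226-95538664 Cx3cl1 fell, while its neighbors Ccl22 and Ccl17 had at most 10 reads in any library. Genes of one cluster are not independent of each other. Of the cluster genes called higher, Ccl5, Ccl7, Ccl9, Ccr1 and Ccr2 passed the filter only through their tamoxifen values and could be called in that direction only. These counts stand beside a background of 28.6% of tested genes called higher, and nothing is read from them.

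Further genes outside the rule, not all of them chemokines or receptors, were read from a separate list of 8, of which 7 were in the table. Ppbp, Pf4 and Cmtm7 were called higher and Ccrl2 and Xcr1 lower (background 28.6% and 16.0% of all tested genes). The most abundant were Cmtm3, Ccrl2, Cmtm7 and Ppbp. Ppbp and Pf4, platelet chemokines, had 17.8 and 51.3 (Ppbp) and 32.9 and 62.6 (Pf4) normalized counts without tamoxifen, and 1077 and 876 (Ppbp) and 473 and 321 (Pf4) with it. Ccrl2, an atypical receptor that presents chemerin on endothelium, had 1172 and 1393 without tamoxifen, against 347 and 275 with tamoxifen. Cmtm7 had 216 and 230.3 against 1413 and 905, and Cmtm3, which was not called, had 1481 and 1424 against 1578 and 1919. Both platelet genes moved with the platelet markers, a list that includes them.

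Of 21 genes that carry signals from chemokine receptors, all were tested, 9 were called higher and 2 lower (background 28.6% and 16.0% of all tested genes, 44.7% either way), with a median log2 fold change of 0.40 beside 0.05 over all tested genes. The genes called lower were Gnai2, the main inhibitory G protein subunit, and Grk5, a receptor kinase. Gnai2, the most abundant, had 58767 and 70112 normalized counts without tamoxifen, against 28569 and 21285 with tamoxifen (log2 fold change -1.38, SE 0.27, limma, BH-adjusted p = 0.00311). Gnb1, Rac1 and Plcb3, next in abundance, had log2 fold changes of -0.64, -0.95 and -0.91 and were under the size limit. The higher genes included the leukocyte genes Rac2, Dock2, Vav1 and Fgr, besides Arrb1, Arrb2, Grk3, Gng2 and Plcb2. Fgr had a mean of 9.12 without and 660 with tamoxifen. Fgr, and Rgs1 which was not called, passed the filter only through their tamoxifen values and could be called in that direction only. Rac2 had 21.9 and 20.0 without tamoxifen, against 3237 and 2172 with tamoxifen.

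Of 18 inducers and regulators of chemokine genes, from inflammatory cytokines to NF-kB and interferon response factors, and including the NF-kB inhibitors Nfkbia and Tnfaip3, 16 were in the table and 15 were tested. Of these, 10 were called lower, both inhibitors among them, and 2 higher (background 16.0% and 28.6% of all tested genes), with a median log2 fold change of -1.22 beside 0.05 over all tested genes. Nfkbia, itself an NF-kB target, had 19120.1 and 19079 normalized counts without tamoxifen, against 4180.2 and 2334 with tamoxifen. Nfkb1 had 9714 and 9483 against 4505 and 3779.97, Rela had 6454 and 7507 against 2834 and 2219, and Irf7 had 7987 and 9419.5 against 1090.3 and 465. All these most abundant genes were lower in both tamoxifen libraries, as were the endothelial markers. The higher genes were Il1b, with 5.48 and 10.01 against 95.4 and 54.6, and Il6, with no control read and 37.9 and 7.19 after tamoxifen, at least 5.74-fold more (1.83-fold without tamoxifen library 1). Il1b and Il6 passed the filter only through their tamoxifen values, so they could be called in that direction only. Tnf stayed under the filter.

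The tested members were finally compared under other scalings of the libraries, because the mean total of normalized counts with tamoxifen was 0.722 of that without. Rescaling to equal totals moved the median log2 fold change of all tested genes by 0.47, and quantile normalization moved it by -0.28. Relative to the median of all tested genes, Ccl2 was at 5.30 under the authors' scaling, also 5.30 with equal totals and 4.90 with quantile normalization. Ackr3 was at -2.64, -2.63 and -2.16 in the same order. Cxcr4 was at 0.29, 0.30 and 0.62, and its log2 fold change of 0.35, 0.82 and 0.40 stayed under the size limit. With equal totals 12 members were called higher and 2 lower, since Ackr2 (log2 fold change -0.83) and Ccr10 (-1.29, limma, BH-adjusted p = 0.0619) lost their calls. With quantile normalization 10 were called higher and 12 lower. Ackr4 and Ccr7 lost their calls there, and Ccl19, Ccl21a, Ccl25, Ccl27a, Ccl28, Ccr9, Cxcl10 and Cxcr6 were called lower. Among these, Ccl21a passed the filter only through its control values. Of all genes called, 64.1% were higher under the authors' scaling, 79.7% with equal totals and 45.6% with quantile normalization. The rises of Ccl2, Ccl5, Ccl6, Ccl7, Ccl9, Ccr1, Ccr2, Cxcr2, Cxcr5 and Cxcl14 and the falls of Ackr3 and Cx3cl1 were called under all 3 scalings.

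**Figure D4:**
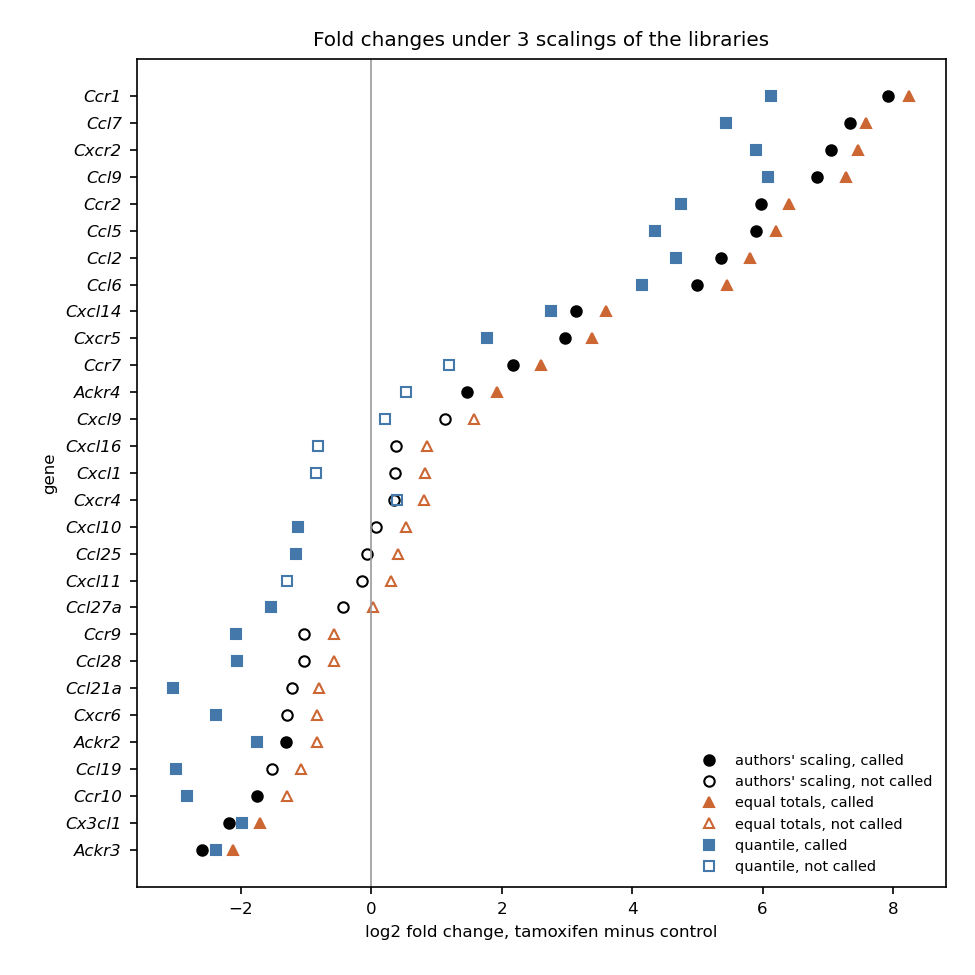
Log2 fold change (tamoxifen minus control, x axis) of the 29 tested members under the authors' scaling, equal totals and quantile normalization, with filled symbols where the gene was called and open symbols where it was not. The members from Cxcr5 upward are called higher under all 3 scalings, and those in the middle of the plot, from Cxcl16 to Ccl27a, change side of 0 with the scaling except Cxcr4.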

How the data were processed

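Polyadenylated RNA of CD31+CD45- cerebral cells was sequenced in 2 control and 2 tamoxifen libraries. Per the paper and labels, the authors aligned reads to GRCm39 with STAR 2.7.10a, counted them during alignment, removed genes of low count and used DESeq2 1.36.0 for normalization. Each deposited value is a normalized signal, a gene's read count divided by one factor per library. The annotation release and strand setting are not given in the sources used here. Columns C1 and C2 of the table match the control titles, and columns A1 and A2 were read as the tamoxifen libraries (A as AVM, a letter the titles do not carry). The smallest step of each column gave back whole reads, with 100% of values within 0.001 of a whole number.

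The filter kept genes with a mean of 10 or more normalized counts for limma 3.58.1 in R 4.3.3 (mean-variance trend, pseudocount 1, BH adjustment over all tested genes). The alternatives changed the pseudocount (0.5 or 5), the filter (none or a mean of 100), the scaling (equal totals or quantiles) and the trend (none), added a replicate block, used edgeR 4.0.16 or DESeq2 1.42.0 with recovered reads, or left out a library. The fits were tested on simulated data. Tested members are named with their values in every library. Statistics are given for the called ones with the largest changes in each role (at most 3 each way) and for uncalled ones with a mean of at least 100. Members under the filter were to be named by their reads, and each pathway list by its 4 most abundant genes. Statistics of Ccl2, Ccl6, Ccr9 and Cxcr6 and the examples Cx3cr1, Pf4, Rac2, Il1b and Il6 were added after their values were seen. Members, lists, motifs and promoters shown were chosen with earlier results of these data known. Gene positions, transcript lengths and shared stretches came from GENCODE M39, and promoters from RefSeq (GRCm38.p6). Some results are not reported here. Python 3.11.15 was used.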

Additional observations from a re-analysis of the deposited data

How the results depend on the processing

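The 16 member calls were unchanged with pseudocounts of 0.5 or 5, with edgeR or DESeq2 on recovered reads, and with the replicate number as a block, which called 9525 of all tested genes against 9151. The libraries share only a number (correlation of deviations 0.0251 across genes), and no other value under the block changed a member's call. Without a mean-variance trend Ccl28 and Ccr9 were added to the lower calls (6 in all). Without a filter, Ccl8, Ccl12, Ccr3, Cxcl5 and Cxcr3 were added to the higher calls (17 in all). With the filter at a mean of 100 normalized counts, 5934 genes and 7 higher and 3 lower members were called, since Ackr4, Ccl5, Ccl7, Ccr7, Ccr10 and Cxcr5 were no longer tested. Equal totals left 2 lower members and quantile normalization gave 12. Leaving out one library moved the number of genes called to between 4147 and 9700, of higher members to between 6 and 11 and of lower members to between 1 and 6, where the lone library is assumed to vary like the others. Without tamoxifen library 2, the calls of Ackr2, Ackr4, Ccl6, Ccr2, Ccr7, Ccr10, Cx3cl1, Cxcl14 and Cxcr2 were lost (6 higher and 1 lower left), and without tamoxifen library 1 those of Ackr2, Ackr4, Ccl6, Ccr2, Ccr7, Ccr10 and Cxcr2 (7 higher and 2 lower left). The adjusted p-values of these lost calls lay between 0.0544 (Cx3cl1) and 0.164 (Ccr10) by limma, with log2 fold changes that kept their sign. Without control library 1, Ackr4 and Ccr10 were lost (adjusted p = 0.0511 and 0.0756 by limma), and without control library 2 Ackr4 was lost (0.0544) and Ccl21a and Cxcr6 were added (0.046 and 0.00539). Of the 16 members, 7 kept their call under every alternative that tested them. No called member changed direction. Uncalled members that changed sign were Ccl27a (0.029), Cxcl11 (0.31) and Ccl25 (0.41) with equal totals and Cxcl1 (-0.85), Cxcl10 (-1.12) and Cxcl16 (-0.81) with quantile normalization, all as log2 fold changes. Leaving out one library moved Cxcl10 to between -0.29 and 0.43, Cxcl11 to between -0.59 and 0.32 and Ccl25 to between -0.50 and 0.39. The cause of these changes was not tested. For the 14 members under the filter, with 1 to 35 reads in all, a difference was not detectable at this depth unless stated.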
